A study of Mizuhopecten yessoensis with 6 samples.

Results

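Among the transcripts of scallop gill, 47 genes formed the set chosen for lower levels after a day of low oxygen. They were picked from 20815 listed genes on their measured levels. A gene entered when it was a nuclear gene (an identifier starting with LOC), had a mean of 10 FPKM or more in the normal libraries and a mean below 500 FPKM over all 6 libraries, and when its lowest normal value was at least 1.5 times its highest hypoxia value. FPKM is the number of sequenced fragments scaled to gene length and to the library total, so levels of different genes can be compared per length. Of the 4748 genes that met the level criteria, 0.990% also met the fold. The choice was thus made on the difference between hypoxia and normal itself, and that difference is given below as a description, with no test of it. In LOC110448666 and LOC110457793 only normal library 1 stood clear of the hypoxia libraries.

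The animals were Yesso scallops (Mizuhopecten yessoensis), a cold-water bivalve. The hypoxia group held 3 scallops kept for 24 h in water with 1 mg/L of dissolved oxygen, and the normal group held 3 scallops kept for 24 h at 9 mg/L. Each library was made from the gill RNA of 1 scallop chosen at random. The sources used here state neither the animals' age, sex or strain nor how many tanks were used, so a tank cannot be told apart from its oxygen level. The library totals worked out from the FPKM values were 26695289 to 27900042 reads per hypoxia library and 24062577 to 25930694 per normal library. These totals need not equal the reads sequenced.

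The bivalve gill is a curtain of ciliated filaments that moves water, traps food and exchanges gas with haemolymph, and it meets a fall in dissolved oxygen before any inner tissue does. Animals that tolerate low oxygen commonly lower their metabolic rate, shift from respiration to fermentation and reduce costly synthesis, and the hypoxia-inducible factor, a regulator found across animals, is best known for turning genes on. In gill pieces such as these, fewer cells of a type and less RNA per cell cannot be told apart.

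All 47 genes are annotated as protein-coding in the RefSeq gene table of assembly ASM211388v2, as are 100% of the listed genes that table matched. For these genes the table gives only the identifier, with no product name and no sequence. Their roles are therefore not described here, no marker of a cell type was looked up, and the label of the tissue was not checked against markers. The genes are ordered below by the size of the difference.

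As a set, the 47 genes held a small and even part of the library totals. They took 0.174, 0.182 and 0.158% of the total in hypoxia libraries 1, 2 and 3, against 0.475, 0.451 and 0.454% in normal libraries 1, 2 and 3. The mean share was 0.171 ± 0.0123% under hypoxia and 0.460 ± 0.0128% in normal gill (SD, n = 3 each). With all 47 genes counted, neither group had a library that stood apart in this share. In normal library 1, however, 5571 and 3674 of the 123174 reads of the set came from LOC110448666 and LOC110457793. The other normal libraries had at most 2 reads of each, so the evenness of the normal group rests in part on these genes.

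Most of these genes were expressed at a moderate level. Their mean level under hypoxia had a median of 6.75 FPKM and reached 72.96 FPKM, while in normal gill the median was 19.1 FPKM and the range 10.2 to 200.1 FPKM. By comparison, the genes meeting the same level criteria had a median of 22.1 FPKM in normal gill. Under hypoxia 8 of the 47 had a mean below 1 FPKM and 14 kept a mean of 10 FPKM or more. The median change over the 47 genes was -1.34 in log2(FPKM + 1), hypoxia minus normal, with a range from -4.29 to -0.62. Over all 13744 genes that passed a filter on low values (1 FPKM or more in at least 3 libraries) the median was 0.03. The median of the 47 log2 ratios of mean FPKM was -1.44 when genes without any read under hypoxia were set to a floor of 3 reads per library.

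**Figure D1:**
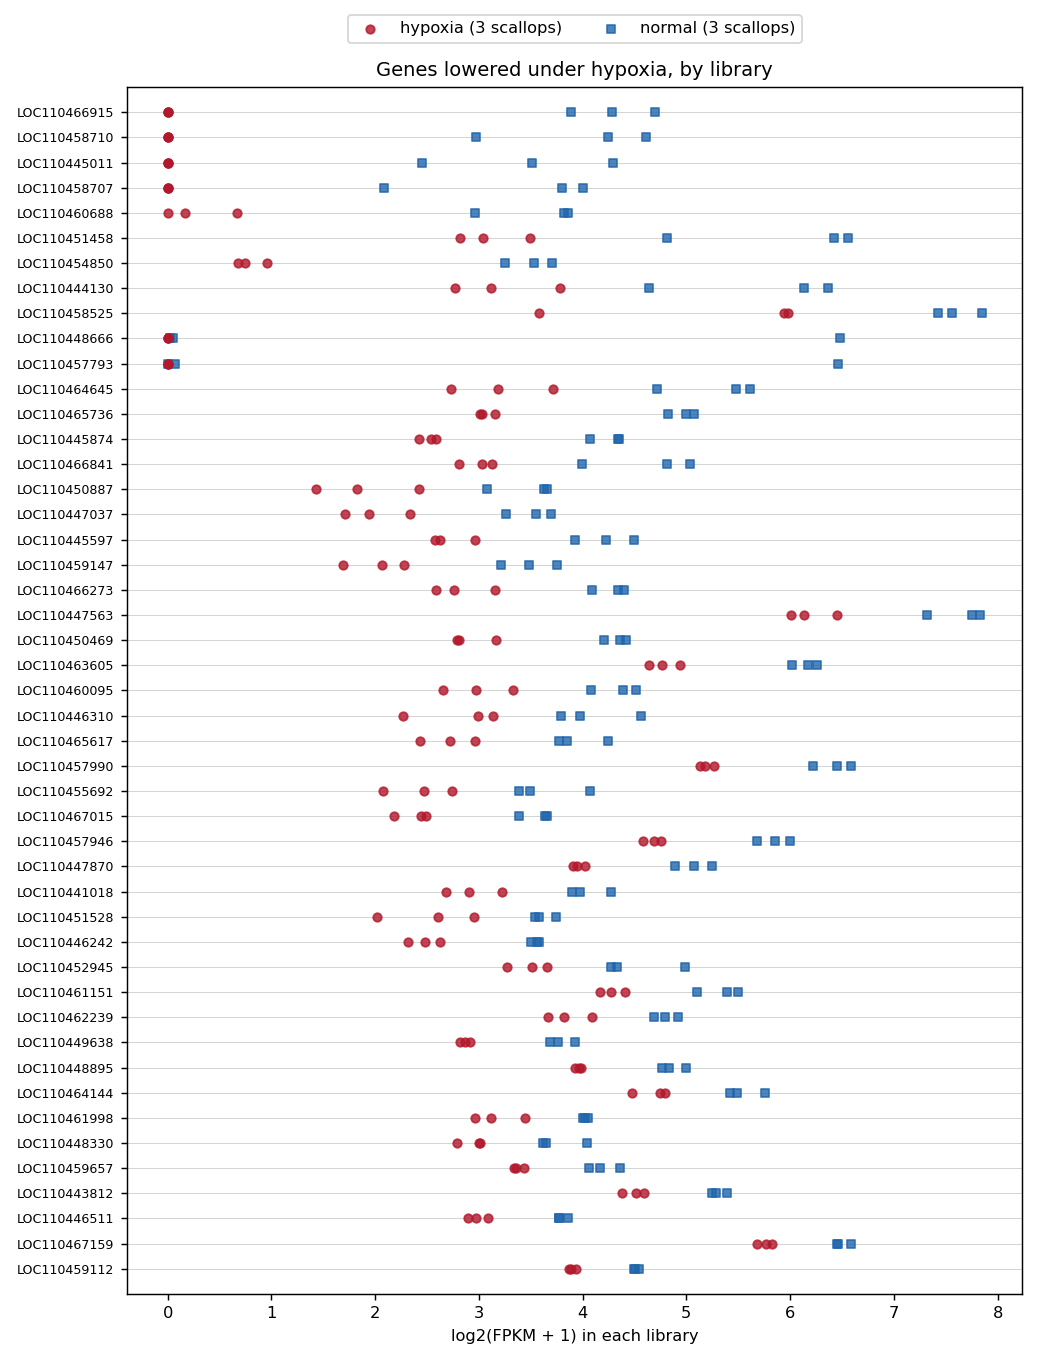
Level of each of the 47 genes as log2(FPKM + 1) on the horizontal axis, with 1 row per gene ordered by the size of its difference. Circles are the 3 hypoxia libraries and squares the 3 normal libraries. In 45 rows all circles lie left of all squares, and in the rows of LOC110448666 and LOC110457793 only 1 square stands clear of the circles.

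At the deep end lay complete silence. Among genes at the level criteria the groups lay fully apart in this direction in 15.2%, and every gene of the set except LOC110457793, which is at 0 in a normal library too, is of that kind by choice. In 6 of the 47 genes not a single read was found in any hypoxia library, and 4 of these had 1 FPKM or more in every normal library. LOC110466915 had 0, 0 and 0 reads in the hypoxia libraries, against 1415, 2502 and 1757 reads in normal libraries 1, 2 and 3, or 13.8, 24.9 and 18.5 FPKM. Set against a floor of 3 reads per hypoxia library, its level was at least 687-fold lower. It was well expressed in each normal scallop, and among the 20804 nuclear genes 86.1% had a lower normal mean.

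The other 3 of these 4 genes shared an order among the normal scallops. LOC110458707 had no read under hypoxia, against 12.9, 15.0 and 3.24 FPKM in normal libraries 1, 2 and 3 (2752, 3131 and 639 reads), and was at least 778-fold lower. LOC110458710 had no read under hypoxia, against 18.0, 23.4 and 6.86 FPKM in the same normal libraries (371, 471 and 131 reads), and was at least 116-fold lower. LOC110445011 had no read under hypoxia, against 10.4, 18.7 and 4.46 FPKM (386, 675 and 153 reads), and was at least 145-fold lower. In all 3 genes normal library 2 was highest and normal library 3 lowest, with a highest-to-lowest ratio of 4.65, 3.41 and 4.18 in the order given. LOC110466915 differed from them, with its lowest value in normal library 1 and a ratio of 1.81.

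LOC110458707 and LOC110458710 were also near neighbours. They were the only 2 of the 47 genes on a shared scaffold, with 1 listed gene between them in the RefSeq order. That gene, LOC110458708, was too low to belong to the set. It had no read under hypoxia, against 146, 212 and 6 reads in normal libraries 1, 2 and 3. Its span overlaps that of LOC110458707 in the table, and no source used here says whether strand was used in counting, so shared reads cannot be told apart from expression of both.

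A similar overlap touched LOC110445011. The next gene in the table, LOC110445013, has a span that overlaps it and stood at 4.999, 7.45 and 0 FPKM under hypoxia, against 12.3, 17.5 and 6.42 FPKM in normal libraries 1, 2 and 3. It kept reads in hypoxia libraries 1 and 2, where LOC110445011 had none, and its groups overlapped.

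The last 2 of the 6 silent genes rested on a single normal scallop. LOC110448666 had no read under hypoxia, against 5571, 1 and 2 reads in normal libraries 1, 2 and 3, or 88.1, 0.016 and 0.034 FPKM. LOC110457793 had no read under hypoxia, against 3674, 0 and 2 reads, or 86.98, 0 and 0.051 FPKM. Normal libraries 2 and 3 were thus as empty as the hypoxia libraries in both genes, and no fold is given for them. Both met the criteria only because 1 normal value raised the mean, and neither passed the filter on low values.

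Normal library 1 held further genes of this kind. In it 157 genes stood at 1 FPKM or more while all 5 other libraries were below 0.1 FPKM, against 4 to 16 genes for any other library. In normal library 1 alone 9 genes stood at 30 FPKM or more, and 2 of those 9 were in the set. The other 7 had traces of reads in a hypoxia library and no gap of 1.5-fold above them in the lowest normal library. In such genes the other normal libraries were below 0.1 FPKM, like the hypoxia libraries, so normal library 1 stood apart within its own oxygen group. With 3 animals a group, the cause was not tested.

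**Figure D2:**
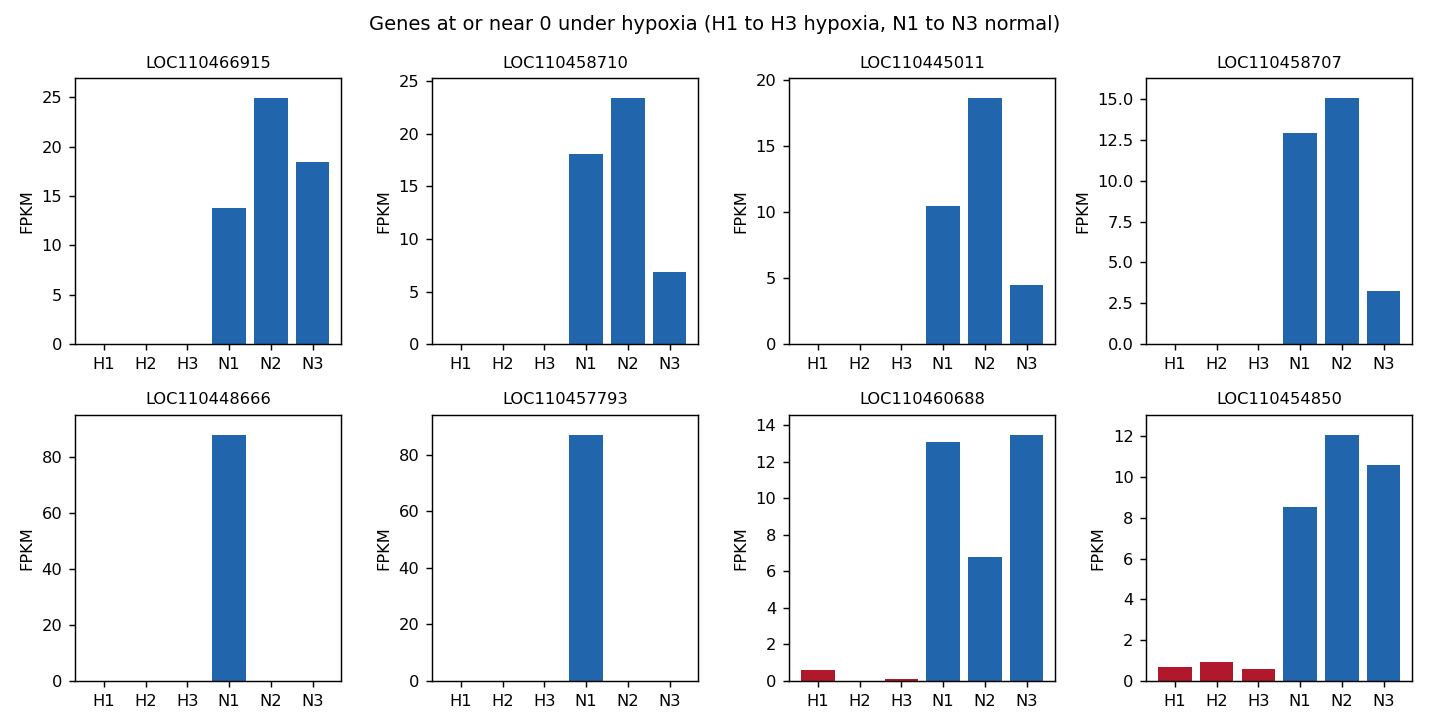
FPKM in each library (H1 to H3 hypoxia, N1 to N3 normal) for the 6 genes with no read under hypoxia and the 2 others whose mean was 10-fold or more lower. Each panel has its own vertical axis starting at 0. LOC110448666 and LOC110457793 have 1 bar only, at 88.1 and 86.98 FPKM in normal library 1.

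Another 2 genes had a mean 10-fold or more lower without reaching 0 in every library. LOC110460688 stood at 0.593, 0 and 0.120 FPKM under hypoxia (24, 0 and 5 reads), against 13.1, 6.81 and 13.5 FPKM in normal libraries 1, 2 and 3. Its mean was 46.8-fold lower under hypoxia, and the few reads left came mostly from hypoxia library 1. LOC110454850 stood at 0.680, 0.940 and 0.597 FPKM under hypoxia, against 8.52, 12.1 and 10.6 FPKM in normal gill. It was 14.1-fold lower, with means of 0.739 ± 0.179 FPKM under hypoxia and 10.4 ± 1.78 FPKM in normal gill (SD, n = 3 each), and kept its low level in all 3 hypoxia scallops.

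Means between 4-fold and 10-fold lower were found in 5 genes, and in 4 of these single scallops differed widely. LOC110451458 stood at 10.3, 7.20 and 6.07 FPKM under hypoxia, against 84.6, 27.0 and 93.3 FPKM in normal gill, where library 2 was low. LOC110444130 stood at 12.7, 5.84 and 7.70 FPKM under hypoxia, against 23.9, 81.7 and 69.2 FPKM in normal gill, where library 1 was low. LOC110464645 stood at 8.11, 12.1 and 5.65 FPKM under hypoxia, against 25.3, 43.5 and 48.1 FPKM in normal gill, again with library 1 lowest. Normal library 1 was thus the lowest normal library in 2 of these 3 genes and library 2 in the other, and the means were 8.70-fold, 6.65-fold and 4.52-fold lower in the order given.

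In LOC110458525 it was a hypoxia scallop that stood apart. It stood at 60.3, 62.3 and 10.9 FPKM in hypoxia libraries 1, 2 and 3, against 229, 171 and 188 FPKM in normal libraries 1, 2 and 3. Its mean was 4.41-fold lower, and hypoxia library 3 lay 5.69-fold below the highest hypoxia library. This gene had the second-highest normal mean of the 47, at 196 ± 29.9 FPKM (SD, n = 3).

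LOC110465736 was the even one of the 5. It stood at 7.91, 7.16 and 7.04 FPKM under hypoxia, against 30.9, 27.3 and 32.7 FPKM in normal gill, a 4.11-fold lower mean. Its means were 7.37 ± 0.472 FPKM under hypoxia and 30.3 ± 2.78 FPKM in normal gill (SD, n = 3 each). Its neighbour LOC110465735, whose span overlaps it, was far more abundant, at 1832, 1360 and 1735 FPKM under hypoxia against 2160, 1956 and 1584 FPKM in normal gill, with groups that overlapped.

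Means between 3-fold and 4-fold lower were found in 6 genes, at 2.86 to 6.96 FPKM under hypoxia and 10.2 to 24.7 FPKM in normal gill. LOC110445874 stood at 4.80, 5.01 and 4.35 FPKM under hypoxia, against 19.2, 15.8 and 19.4 FPKM in normal gill, and was 3.85-fold lower. LOC110466841 stood at 5.99, 7.74 and 7.15 FPKM under hypoxia, against 15.0, 27.2 and 31.9 FPKM in normal gill, with library 1 lowest. Its neighbour LOC110466842, whose span overlaps it, was far more abundant and also lower in every hypoxia library, at 589, 574 and 542 FPKM under hypoxia against 754, 958 and 922 FPKM in normal gill, again with normal library 1 lowest. Reads shared between these 2 genes cannot be told apart from expression of both. The other 4 were LOC110450887, LOC110447037, LOC110445597 and LOC110459147, which were 3.55-fold, 3.41-fold, 3.16-fold and 3.34-fold lower.

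The most common size of difference, in 18 genes, was a mean between 2-fold and 3-fold lower. It held the most abundant gene of the set, LOC110447563, which stood at 69.0, 86.3 and 63.6 FPKM under hypoxia, against 158, 227 and 215 FPKM in normal gill. It ranked 306 among the nuclear genes by normal mean. LOC110457990 stood at 33.95, 35.2 and 37.6 FPKM under hypoxia, against 95.2, 86.4 and 73.4 FPKM in normal gill. LOC110463605 stood at 29.7, 26.2 and 23.9 FPKM under hypoxia, against 63.99, 75.5 and 71.3 FPKM in normal gill. In these 3 abundant genes each hypoxia library lay below each normal library, as the choice required, and the means were 2.74-fold, 2.39-fold and 2.64-fold lower.

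The group also held genes of lower expression. LOC110446242 stood at 5.17, 4.59 and 3.99 FPKM under hypoxia, against 10.9, 10.8 and 10.4 FPKM in normal gill. Its 3 normal scallops were close to equal, with a coefficient of variation (SD over mean) of 0.028. LOC110446310 was at the other end, at 6.95, 7.80 and 3.81 FPKM under hypoxia against 22.7, 12.9 and 14.7 FPKM in normal gill, with 1 low hypoxia library and 1 high normal library. The remaining genes of this group had means from 4.19 to 24.6 FPKM under hypoxia and from 10.8 to 56.8 FPKM in normal gill.

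The last 10 genes had means less than 2-fold lower, and a gap of 1.5-fold between groups leaves such genes little room for spread. LOC110467159 stood at 55.7, 53.6 and 50.4 FPKM under hypoxia, against 86.5, 94.9 and 87.4 FPKM in normal gill, a 1.68-fold lower mean. LOC110459112 stood at 13.8, 13.6 and 14.3 FPKM under hypoxia, against 21.8, 22.3 and 21.6 FPKM in normal gill, the smallest difference of the set at 1.57-fold lower. LOC110461998 stood at 6.82, 7.65 and 9.93 FPKM under hypoxia, against 15.3, 15.6 and 15.1 FPKM in normal gill. LOC110459112 and LOC110461998 had the most even normal scallops of the set, both with a coefficient of variation of 0.017, while hypoxia library 3 of LOC110461998 came near the threshold.

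The threshold of 1.5 cut through a continuous range. Just inside it were LOC110459112, LOC110461998 and LOC110462239, whose lowest normal value was 1.51, 1.52 and 1.54 times the highest hypoxia value. Just outside were LOC110448433, LOC110445510 and LOC110465631, at 1.496, 1.494 and 1.49 times. LOC110448433, for example, stood at 20.8, 18.6 and 20.4 FPKM under hypoxia, against 31.1, 35.0 and 35.8 FPKM in normal gill. At a looser fold, a ratio of 5 to 4, the same criteria chose 153 genes, and at a fold of 2 they chose 21.

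Fewer genes met these criteria than met their mirror image. With the groups exchanged, 185 of 4918 genes at the same levels had a lowest hypoxia value at least 1.5 times their highest normal value, against 47 of 4748 in the lowered direction. At a fold of 3 the numbers were 50 raised and 10 lowered, and at a fold of 5 they were 22 raised and 8 lowered. Complete silence ran the other way, though in few genes. At 0 in every library of 1 group with a mean of 10 FPKM or more in the other, 6 genes were silent under hypoxia and 0 in normal gill. Those 6 include LOC110448666 and LOC110457793, which rested on normal library 1 alone. When the present group was required to reach 10 FPKM in each library, only LOC110466915 was left. Both sets come from the same 6 libraries, and their numbers were not compared by a test.

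**Figure D3:**
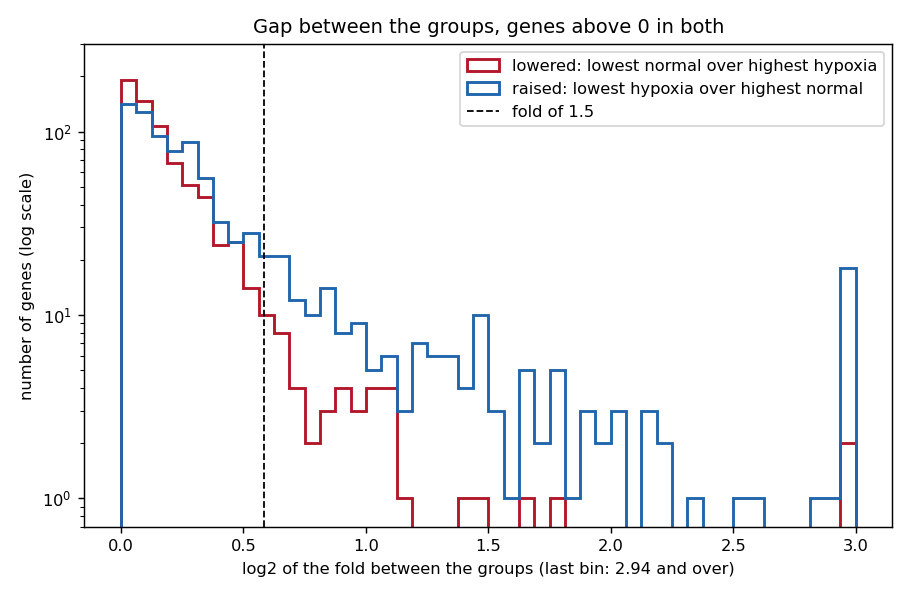
Gap between the groups for genes at the level criteria whose groups do not overlap and whose values are above 0 on both sides. The horizontal axis is log2 of the lowest normal over the highest hypoxia value (lowered genes) or of the lowest hypoxia over the highest normal value (raised genes), and the vertical axis is the number of genes on a log scale. Right of the dashed line at a fold of 1.5 the raised genes outnumber the lowered ones in most bins. Genes with no read in 1 group are not drawn.

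A lower mean alone was more common than a clean gap. At the same levels, 160 genes had a mean at least 2-fold lower under hypoxia, of which 37 were in the set and 123 were not. Of those 123 genes, 86 had overlapping groups and 102 had a highest normal value at least 2 times the lowest. Among the 47 genes, 8 had a highest normal value 2 or more times the lowest, or 17.0%, beside 15.8% of all genes at these levels.

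**Figure D4:**
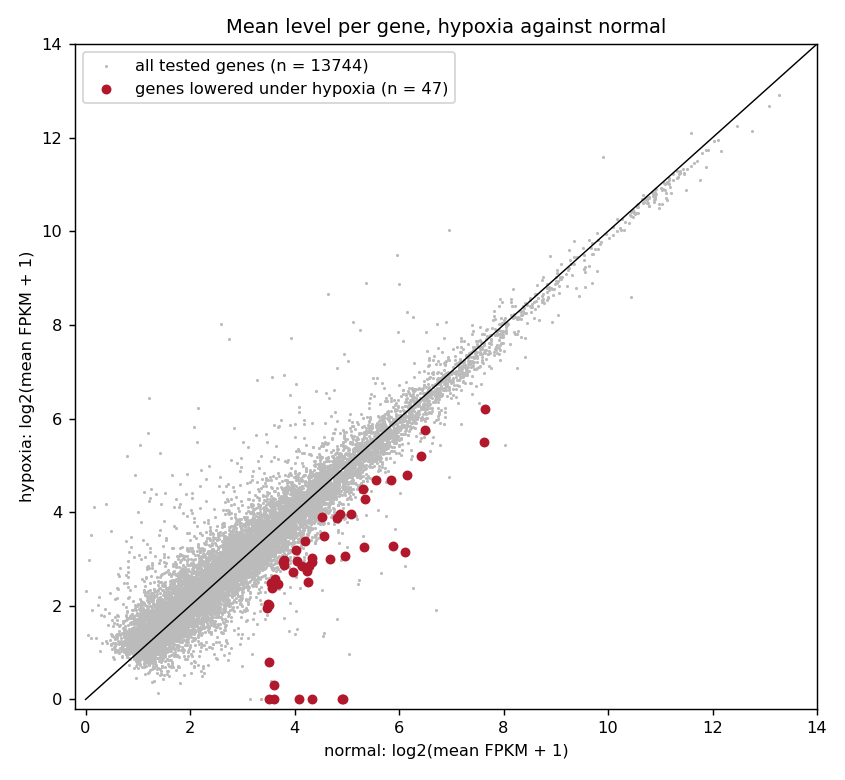
Mean level per gene as log2(mean FPKM + 1), with hypoxia on the vertical and normal on the horizontal axis. Grey points are the 13744 tested genes, red points the 47 genes of the set, and the line marks equal means. The red points lie below the line, from 1.57-fold lower down to 0 FPKM, and grey points at similar depth are genes whose groups lie closer than 1.5-fold or that fall outside the level criteria.

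The spread between scallops was described for the set as well. The median coefficient of variation was 0.161 under hypoxia, over the 41 genes with any read there, and 0.153 in normal gill over all 47. For all genes at these levels the medians were 0.117 under hypoxia and 0.160 in normal gill. In 19 of the 41 genes the normal scallops varied more than the hypoxia scallops by this measure, while 63.9% of all genes at these levels did. The lowest normal and the highest hypoxia value entered the choice, so the spread of the set is not independent of it. The comparison was also not matched for the lower level of the set under hypoxia, and it was not tested. Both groups were tight, with a coefficient below 0.1, in 7 genes, among them LOC110465736, LOC110467159 and LOC110459112. No normal scallop ran through the set as the high or low one. Normal library 1 was lowest in 17 genes, library 2 in 15 and library 3 in 15, and the highest value was in libraries 1, 2 and 3 in 13, 21 and 13 genes. As shares of the set, these were 36.2, 31.9 and 31.9% for the lowest value and 27.7, 44.7 and 27.7% for the highest. Over all genes at these levels they were 37.0, 27.3 and 35.7% for the lowest and 31.5, 35.9 and 32.6% for the highest. Library 2 was thus the highest more often in the set than over all these genes.

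Larger sets than the 47 genes were next chosen with 1 library taking no part in the choice. The criteria were applied to 5 libraries, and the position of the one left out was then read. Without hypoxia library 1, 2 or 3 the criteria chose 76, 84 and 88 genes, and the left-out library lay below every normal library in 86.8, 84.5 and 76.1% of them, against 34.1, 29.4 and 31.4% of all genes at the same levels. Without normal library 1, 2 or 3 they chose 126, 83 and 87 genes, and the left-out library lay above every hypoxia library in 81.0, 78.3 and 77.0%, against 31.7, 38.3 and 36.4% of all genes at these levels. The left-out scallop was on the same side in most of the genes chosen on the other 5 libraries. The genes were chosen on the same extreme value of the other group that the left-out library was then set against. That favours the same side in advance, so the shares over all genes are no matched baseline. The median change shown by a left-out library, in log2(FPKM + 1), hypoxia minus normal, was -0.97, -0.88 and -0.98 for hypoxia libraries 1, 2 and 3, and -0.59, -0.69 and -0.78 for normal libraries 1, 2 and 3. These medians are smaller in size than the -1.34 of the 47 genes chosen on all libraries. The other group's libraries did take part in the choice, so these shares are not independent of it and carry no test.

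**Figure D5:**
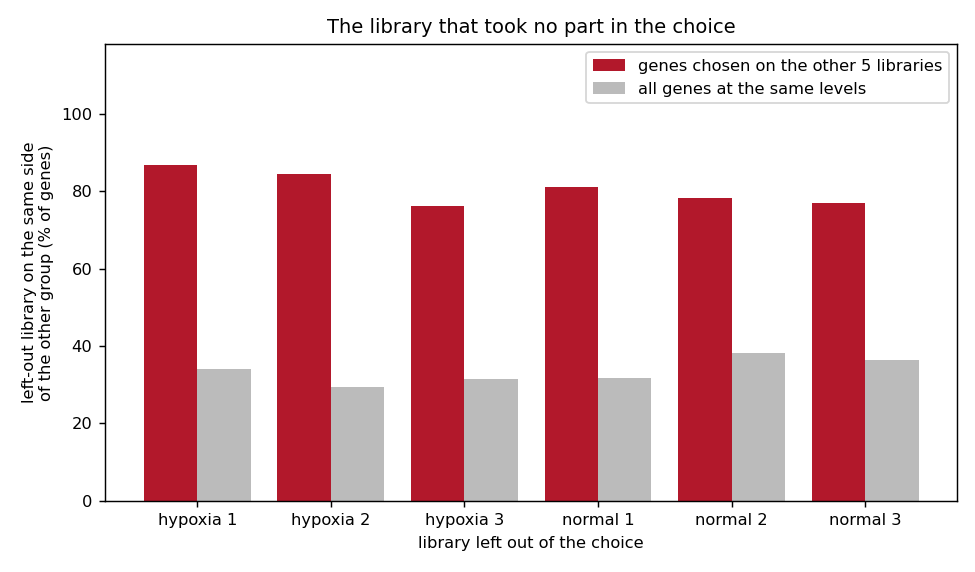
Share of genes, in percent, in which the library left out of the choice lay on the same side of all libraries of the other group. Red bars are the genes chosen on the other 5 libraries, and grey bars all genes at the same levels, which are no matched baseline. The red bars run from 76.1 to 86.8% and the grey bars from 29.4 to 38.3%.

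The limma test over all genes called 59 genes lower under hypoxia at an adjusted p below 0.05, or 0.429% of those tested, and 203 higher. Of the 47 genes, 45 passed the filter on low values and 36 were called lower. The 36 include the 4 silent genes that were tested and the 2 others whose mean was 10-fold or more lower. Those genes were below 1 FPKM in every hypoxia library and passed the filter through normal libraries only, so their calls are no support. The same libraries chose all 47 genes, so the count is given as a description only. The 9 that were tested and not called had limma adjusted p-values from 0.059 to 0.12. They include LOC110458525 (log2 change -2.45, SE 0.64) and LOC110444130 (-2.49, SE 0.50), where single scallops stood apart, as well as LOC110461998 (-0.85, SE 0.16). Among the 23 genes called lower outside the set, 17 had a normal mean below 10 FPKM and 6 had a gap below 1.5-fold.

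Fewer genes were called when any 1 library was left out. With 1 hypoxia library left out 45 of the 47 genes were tested and 6 to 7 called. With normal library 1, 2 or 3 left out 39 were tested in each fit, and 16, 7 and 7 were called. These fits hold fewer libraries, and the median log2 change of the 47 genes stayed between -1.41 and -1.17 in them. All 47 means were lower under hypoxia in these fits, which the choice of the genes on this difference largely fixed in advance. Called in each alternative that tested them were 3 genes, LOC110465736, LOC110454850 and LOC110466915. LOC110465736 was tested in 16 alternatives, and LOC110454850 and LOC110466915 in 13 each. These latter genes reached 1 FPKM in normal libraries only, so the fits without a normal library did not test them. The criteria themselves kept 42, 42 and 45 of the 47 genes without normal library 1, 2 or 3. The 5 genes lost in the first case include LOC110448666 and LOC110457793. Leaving out a hypoxia library could remove a gene only through the mean over all libraries, and kept all 47.

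Position in the genome gave no further grouping. The 47 genes lay on 46 scaffolds, and no 2 of them were direct neighbours. Around them 56 other tested genes stood directly beside a member in the RefSeq order. Of these neighbours 48.2% had a lower mean under hypoxia, against 46.2% of all tested genes, and their median log2 change was 0.01. By the limma test 0 of the 56 were called lower and 1 was called higher. That neighbour, LOC110445892, stood at 2.39, 2.34 and 2.37 FPKM under hypoxia, against 0.883, 0.961 and 0.804 FPKM in normal gill, beside LOC110445874, which was 3.85-fold lower. In 6 cases the span of the neighbour overlapped that of the gene in the set.

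The transcripts were of ordinary length. The gene lengths at which the FPKM values turn into whole reads had a median of 2320 bases over the 47 genes, with a range from 794 to 8319, against 2622.5 for all genes at these levels. The reads behind these values were as follows. Leaving aside the 6 silent genes and the 2 whose mean was 10-fold or more lower, the other 39 genes had from 122 to 10940 reads in a hypoxia library. In normal libraries the 41 genes with reads under hypoxia had from 262 to 18048.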

How the data were processed

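Gill RNA of 6 scallops was sequenced, 3 per group, and the authors deposited 1 table of FPKM values with a column for each library. Reads were handled with fastp, HISAT2 and HTSeq, per the submitters' processing notes. Settings, genome build, strand use and the handling of reads with several matches are not stated in those notes. Columns were matched to samples by the name in each title, and 0 were left unmapped.

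The members, lists and rules were chosen with earlier results of these data known. The FPKM values were used as deposited. Genes at 1 FPKM or more in at least 3 libraries were tested with limma 3.58.1 (R 4.3.3), using a mean-variance trend on log2(FPKM + 1) and a two-sided test with Benjamini-Hochberg adjustment over all tested genes and a threshold of 0.05. Each p-value sets the group difference against the spread between these scallops, moderated across genes. It cannot tell oxygen apart from tank. A fold change on this scale understates the change of low genes.

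Whole reads were recovered by seeking, for the 11 mitochondrial genes, a library total that makes each count whole, and then a gene length (tolerance 0.002 reads). Of 200 control genes 100% came out whole, and 0% with altered totals. The totals need not equal the reads sequenced, and the floor of 3 reads used for silent genes reflects counting error alone. On simulated data with 13744 genes, limma found 75% of the genes given a 4-fold change, 38% of the genes given a 2-fold change and 7 unchanged genes.

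Genes named with their values were all those at 0 under hypoxia, the 8 largest log2 differences, the 6 highest normal means, those nearest the fold of 1.5 and those with the extreme normal coefficients of variation. Others were chosen after their values were seen. The planned gene lists, cell type markers, promoter motifs and protein identities were not run, since the reference table used here holds no product names or sequences. Genes were placed on a new scaffold where positions start again in the table. The scripts ran in Python 3.11.15 with numpy 2.4.6, pandas 2.3.3 and matplotlib 3.10.9.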

Additional observations from a re-analysis of the deposited data

How the results depend on the processing

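The number of genes chosen was 47, and it moved to 153 at a looser fold (a ratio of 5 to 4), 21 at a fold of 2, 88 at a normal mean of 5 FPKM and 21 at a normal mean of 20 FPKM. It was 38 with libraries rescaled to equal FPKM sums and 55 with median ratio scaling. With 1 library left out it ran from 76 to 126. In the limma test 36 of the 47 were called. That count was 21 when no gene was filtered out, 4 under the replicate block (replicate number as a term), and 6 to 16 with 1 library left out, fits that hold fewer libraries. Over all genes, 27 were called lower and 99 higher with no gene filtered out, and 5 lower and 46 higher under the block. With 1 library left out 8 to 43 were lower and 38 to 172 higher. The other alternatives kept these counts within 1.5 times. No label says that a replicate number pairs scallops. Deviations from the group mean correlated at 0.10, 0.01 and -0.09 between libraries of numbers 1, 2 and 3, so this pairing is given only here. The median log2 change of the 47 genes, -1.34, was -1.44 with a pseudocount of 0.1, -1.27 with equal FPKM sums, -1.45 with voom on recovered reads, and -1.41 to -1.17 with 1 library left out. All 47 means were lower under hypoxia in each of the 16 alternatives of the fit. That outcome was largely fixed in advance, since the genes were chosen for a gap in this direction. Rescaling to equal sums moved the median change of all tested genes to 0.10, from 0.03. The causes of these moves were not tested. A gene at 0 is limited at this depth only to under 3 reads per library.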
